A study of Mus musculus with 5 samples.

Results

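The 10 genes described here encode Toll-like receptors, the proteins that present ligands to them, and the adaptors and inhibitor that act behind them in the mouse kidney. They are Tlr2, Tlr4, Tlr7, Tlr9, Tlr13, Cd14, Ly96, Myd88, Irak3 and Ticam1, taken by their symbols from the 32285 genes of the count matrix, by a rule that uses no measured value, though the list was drawn up with earlier results of these data known. The kidneys came from male C57BL/6J mice bought at an age of 6 to 8 weeks. In unilateral ischemia-reperfusion (UIR), the left renal pedicle was clamped for 35 minutes and the right kidney was kept, and kidneys were taken at day 1, 3, 14 or 28. The Sham kidneys had the same surgery without the clamp. There was 1 sample for each of the 5 conditions, and the labels describe a sample as kidney from 3 mice, so the animals of a condition cannot be told apart. The matrix holds unique molecular identifier (UMI) counts, each standing for 1 captured mRNA molecule, from 5 libraries numbered by the end of the cell barcode. No label ties a library number to a condition. All cells were therefore taken as 1 pooled sample, the libraries are given by number only, and no test between conditions was possible.

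Toll-like receptors are membrane proteins that recognise microbial molecules and products of injured tissue. Tlr2 and Tlr4 sit at the cell surface, while Tlr7, Tlr9 and Tlr13 read nucleic acids inside endosomes. Most of them signal through the adaptor Myd88 and the IRAK kinases to NF-kappa B and inflammatory cytokines, and Ticam1 (TRIF) is the adaptor of Tlr3 and of internalised Tlr4. In the kidney they are best known from infiltrating leukocytes, and they have also been studied in tubule and endothelial cells after ischemia.

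Promoters of 4 members are shown first, because the receptors end in NF-kappa B and several of these genes are myeloid genes. RefSeq promoters (build GRCm38.p6, 250 bases before to 50 bases after the start) were at hand for 6 of the 10 members, 7 promoters in all. The motifs searched on both strands were the kappa B motif by name, the AP-1 motif TGANTCA, the PU.1 core GAGGAAG and the C/EBP motif TTNNGNAA. Capitals mark any match, and the 250 bases before the start are printed with 20 bases from the start on. Tlr2 lies on the minus strand of chromosome 3 and was the member with the most kappa B matches. Tlr13 and Ticam1 were the members furthest apart between neutrophil-like and monocyte/macrophage-like cells, in opposite directions, and Irak3 was the member with 2 promoters.
Tlr2, chr3:83841589-83841858, minus strand: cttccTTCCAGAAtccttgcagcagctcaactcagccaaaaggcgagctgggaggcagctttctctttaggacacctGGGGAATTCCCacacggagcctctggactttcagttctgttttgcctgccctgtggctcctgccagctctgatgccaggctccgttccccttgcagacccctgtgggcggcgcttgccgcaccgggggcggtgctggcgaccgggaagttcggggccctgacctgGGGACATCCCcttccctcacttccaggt
Tlr13, chrX:106143025-106143294, plus strand: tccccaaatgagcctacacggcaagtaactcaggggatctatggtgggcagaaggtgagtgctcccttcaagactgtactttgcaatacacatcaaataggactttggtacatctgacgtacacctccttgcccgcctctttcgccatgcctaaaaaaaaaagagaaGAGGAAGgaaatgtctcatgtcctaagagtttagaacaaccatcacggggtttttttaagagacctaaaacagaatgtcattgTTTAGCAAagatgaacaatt
Irak3, chr10:120202111-120202380, minus strand: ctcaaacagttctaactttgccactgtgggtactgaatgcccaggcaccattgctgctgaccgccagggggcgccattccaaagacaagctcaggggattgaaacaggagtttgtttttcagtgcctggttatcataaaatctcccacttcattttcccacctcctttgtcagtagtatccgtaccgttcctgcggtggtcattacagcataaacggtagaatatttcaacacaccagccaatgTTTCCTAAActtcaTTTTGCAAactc
Ticam1, chr17:56276748-56277017, minus strand: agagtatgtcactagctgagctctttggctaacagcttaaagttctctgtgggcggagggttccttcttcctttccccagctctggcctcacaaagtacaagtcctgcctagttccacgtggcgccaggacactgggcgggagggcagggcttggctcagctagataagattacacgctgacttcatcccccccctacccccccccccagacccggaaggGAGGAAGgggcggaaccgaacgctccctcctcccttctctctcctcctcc
Tlr2 held 3 kappa B matches, starting 173, 172 and 8 bases before the start, of which the first pair overlap and share 1 run of capitals, and 1 C/EBP match. Tlr13 held 1 PU.1 match 83 bases before the start and 1 C/EBP match beginning at the start. The Irak3 promoter held 3 C/EBP matches, of which 2 overlap, and its other promoter held none of the motifs. Ticam1 held 1 PU.1 match 30 bases before the start. Among all 32851 RefSeq promoters of the same length, 8.46% held the kappa B motif, 7.81% AP-1, 13.6% PU.1 and 40.7% C/EBP. Of the 7 member promoters, 1 held kappa B, 1 AP-1, 3 PU.1 and 4 C/EBP. These are matches of letters only.

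The members lie at scattered places in the genome. In the GENCODE vM21 annotation of GRCm38, Tlr2 spans chr3:83836272-83841767 and Tlr4 chr4:66827584-66930284. Tlr9 spans chr9:106222598-106226883, Myd88 chr9:119335934-119341411, and Tlr7 and Tlr13 both lie on the X chromosome. Exonic bases were shared with genes on the opposite strand for Myd88 (315 bases, with Acaa1a) and Irak3 (299 bases, with Gm47009 and Tmbim4), so if strand was not used in counting, some of their UMIs could come from these neighbours.

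From 10474594 barcodes, 57744 cells were kept, with a median of 4604 UMIs and 1693 genes per cell. Libraries 1 to 5 held 82426945 to 139382799 UMIs over all barcodes and 8294 to 19020 kept cells. A barcode was shared between libraries for 707 of the cells. Cells were gated by markers and are called "-like", and the gates give ranges of marker counts, not types. A cell needed UMIs of 3 markers of a class, or of 6 for the proximal tubule, and no member was a marker. Of the neutrophil-like cells 177 held just the number needed, and 362 other cells held 1 marker too few. For macrophage-like cells these numbers were 116 and 157, for endothelial-like cells 30 and 63, and for proximal tubule-like cells 2483 and 2582. In the injured proximal tubule-like class they were 1053 and 1088, so most of its 1758 cells held just the number needed. The largest classes were 37001 proximal tubule-like, 1758 injured proximal tubule-like, 1248 neutrophil-like, 1198 T cell-like, 1064 thick ascending limb-like, 1002 macrophage-like and 353 classical monocyte-like cells, and 342 cells were endothelial-like. The labels name goblet cells, but no kept cell held 3 of 7 goblet cell markers and 145 held at least 1. A further 1813 cells passed several gates and were left out as mixed, and 10372 cells passed none. Library 5 held 2 neutrophil-like and 47 macrophage-like cells, so its immune values rest on few UMIs.

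A level is given below in CPM, the UMIs of a gene summed over all cells of a class and scaled to 1000000 UMIs of these cells, with a 95% interval from the exact Poisson distribution. The intervals cover counting error only and leave out the spread between cells and between mice. A fold change is a ratio of 2 such levels, with an exact conditional binomial interval. The level in empty droplets, which hold free RNA of the suspension, stands beside the levels as background. A level pooled over libraries weights each library by the cells it gave to the class, and library 3 held 272 of the 353 classical monocyte-like and 64 of the 84 infiltrating macrophage-like cells. Levels are not compared between genes, since they were not divided by gene length or capture efficiency.

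The surface receptor Tlr2, which recognises bacterial lipoproteins together with Tlr1 or Tlr6, was a myeloid gene in these kidneys. Its level was 166 CPM (155 to 177) in macrophage-like, 156 CPM (139 to 175) in neutrophil-like and 135 CPM (117 to 155) in classical monocyte-like cells over all libraries, with overlapping intervals, and the order within libraries is given below. Infiltrating macrophage-like cells, gated by markers such as Arg1 and Gpnmb, held 79.6 CPM (57.9 to 107) and conventional dendritic-like cells 41.2 CPM (29.6 to 55.9). T cell-like cells held 3.08 CPM and endothelial-like cells 3.92 CPM, against 3.20 CPM in empty droplets over all libraries. Proximal tubule-like cells held 0.958 CPM (0.836 to 1.09) and lay below the empty droplets in libraries 1 to 4, with overlapping intervals in library 5. Injured proximal tubule-like cells held 10.6 CPM (9.23 to 12.1), with an interval above that of empty droplets in libraries 1 and 2 and overlapping it in libraries 3, 4 and 5. The gated immune cells, which held 14209447 of the 319774447 UMIs of all genes, gave 58.4% of the Tlr2 UMIs, and the gated tubule cells, which held 267317430, gave 18.8%.

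Tlr2 differed between libraries in the myeloid classes. In neutrophil-like cells the levels were 310.4 and 261 CPM in libraries 1 and 2 and 81.9 and 52.7 CPM in libraries 3 and 4. In macrophage-like cells they were 198, 229.7, 62.5, 84.9 and 104 CPM in libraries 1 to 5. Classical monocyte-like cells held 339, 118 and 115 CPM in libraries 2, 3 and 4. Libraries 1 and 2 stood above libraries 3 and 4 in both neutrophil-like and macrophage-like cells, with no overlap of the intervals. Within each of libraries 2, 3 and 4 the classical monocyte-like level was the highest of these 3 classes, and in library 3 its interval (99.5 to 140.0 CPM) lay above that of macrophage-like cells (47.4 to 80.8 CPM). The number of a library does not give its condition, and these differences have no replicate.

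Tlr4, the receptor of lipopolysaccharide (LPS), was also found outside the leukocytes. Neutrophil-like cells held 36.6 CPM (28.5 to 46.3), endothelial-like cells 20.3 CPM (13.8 to 28.8), infiltrating macrophage-like cells 19.9 CPM (9.94 to 35.6), fibroblast/pericyte-like cells 15.1 CPM (7.82 to 26.4) and macrophage-like cells 13.5 CPM (10.6 to 17.0). The intervals of the endothelial-like class and of those after it overlapped, while the neutrophil-like interval met that of the endothelial-like class and stood above that of macrophage-like cells. The fibroblast/pericyte-like class held 216 CPM of the epithelial gene Pax8, against 120 CPM in proximal tubule-like cells, but 1.26 against 3.40 CPM of Epcam. Of its 88 cells, 42 held just the number of markers needed, so the identity of this class is uncertain. No Tlr4 UMI was found in 1198 T cell-like, 340 B cell-like and 141 NK cell-like cells. In T cell-like cells 3 UMIs would have made 1.15 CPM, whereas in NK cell-like cells they would have made 11.4 CPM. A level below that was not detectable there. Proximal tubule-like cells held 14 Tlr4 UMIs in all, 0.0599 CPM (0.0327 to 0.1004), against 0.783 CPM in empty droplets.

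Across the libraries, endothelial-like cells held 16.0, 26.6 and 21.0 CPM of Tlr4 in libraries 1, 2 and 3, from 8, 13 and 8 UMIs. Neutrophil-like cells held 77.6, 56.0, 20.2 and 26.4 CPM in libraries 1 to 4. Macrophage-like cells held 10.7, 12.4, 12.9 and 21.8 CPM in libraries 1 to 4 and no UMI in library 5. The endothelial-like levels overlapped in all 3 libraries, and in neutrophil-like cells only the intervals of libraries 2 and 3 stood apart.

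The endosomal receptors divided the myeloid classes. Tlr13, which recognises bacterial ribosomal RNA, was at 107 CPM (92.9 to 123) in neutrophil-like cells over all libraries. The pooled levels were lower in infiltrating macrophage-like (57.9 CPM, 39.6 to 81.8), classical monocyte-like (34.8 CPM, 25.9 to 45.8) and macrophage-like cells (25.4 CPM, 21.3 to 30.0). Neutrophil-like cells held 116, 152, 63.9 and 132 CPM in libraries 1 to 4, against 16.1, 27.8, 28.0 and 32.6 CPM in macrophage-like cells, and the intervals of both classes did not overlap in any of these 4 libraries. In library 3, the 1 library with over 20 infiltrating macrophage-like cells, these held 61.7 CPM (37.7 to 95.3), which overlapped the neutrophil-like interval there (48.4 to 82.8 CPM). No Tlr13 UMI was found in endothelial-like, B cell-like or NK cell-like cells. In endothelial-like cells 3 UMIs would have made 1.961 CPM, and empty droplets held 0.913 CPM.

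Tlr7, the receptor of single-stranded RNA, had the opposite order. Macrophage-like cells held 25.6 CPM (21.4 to 30.2) and classical monocyte-like cells 24.6 CPM (17.2 to 34.0), against 7.43 CPM (4.06 to 12.5) in neutrophil-like cells. Small classes were high as well, with 74.5 CPM (32.2 to 147) from 8 UMIs of 40 non-classical monocyte-like cells and 63.9 CPM (25.7 to 132) from 7 UMIs of 31 plasmacytoid dendritic-like cells. B cell-like cells held 10.6 CPM (3.89 to 23.1) from 6 UMIs. Conventional dendritic-like cells held no UMI, where 3 UMIs would have made 3.02 CPM. Macrophage-like cells varied little between libraries, from 20.5 to 29.4 CPM in libraries 1 to 4, and their intervals overlapped. Classical monocyte-like cells held 60.8, 18.9 and 44.6 CPM in libraries 2, 3 and 4, from 7, 22 and 7 UMIs. Macrophage-like cells held 28.2, 20.5 and 29.4 CPM there, so the order of the 2 classes turned with the library, with overlapping intervals in each.

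Tlr9, the receptor of unmethylated CpG DNA, was close to undetected, with 21 UMIs in all 57744 cells. Macrophage-like cells held 9 of them, 1.69 CPM (0.774 to 3.21), the immune classes 14 together and the tubule classes 4. Empty droplets held none. The immune classes together stood at 0.985 CPM (0.539 to 1.65) and the tubule classes at 0.0150 CPM (0.00408 to 0.0383), without overlap. No order within the immune or within the tubule classes could be read at this depth.

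**Figure D1:**
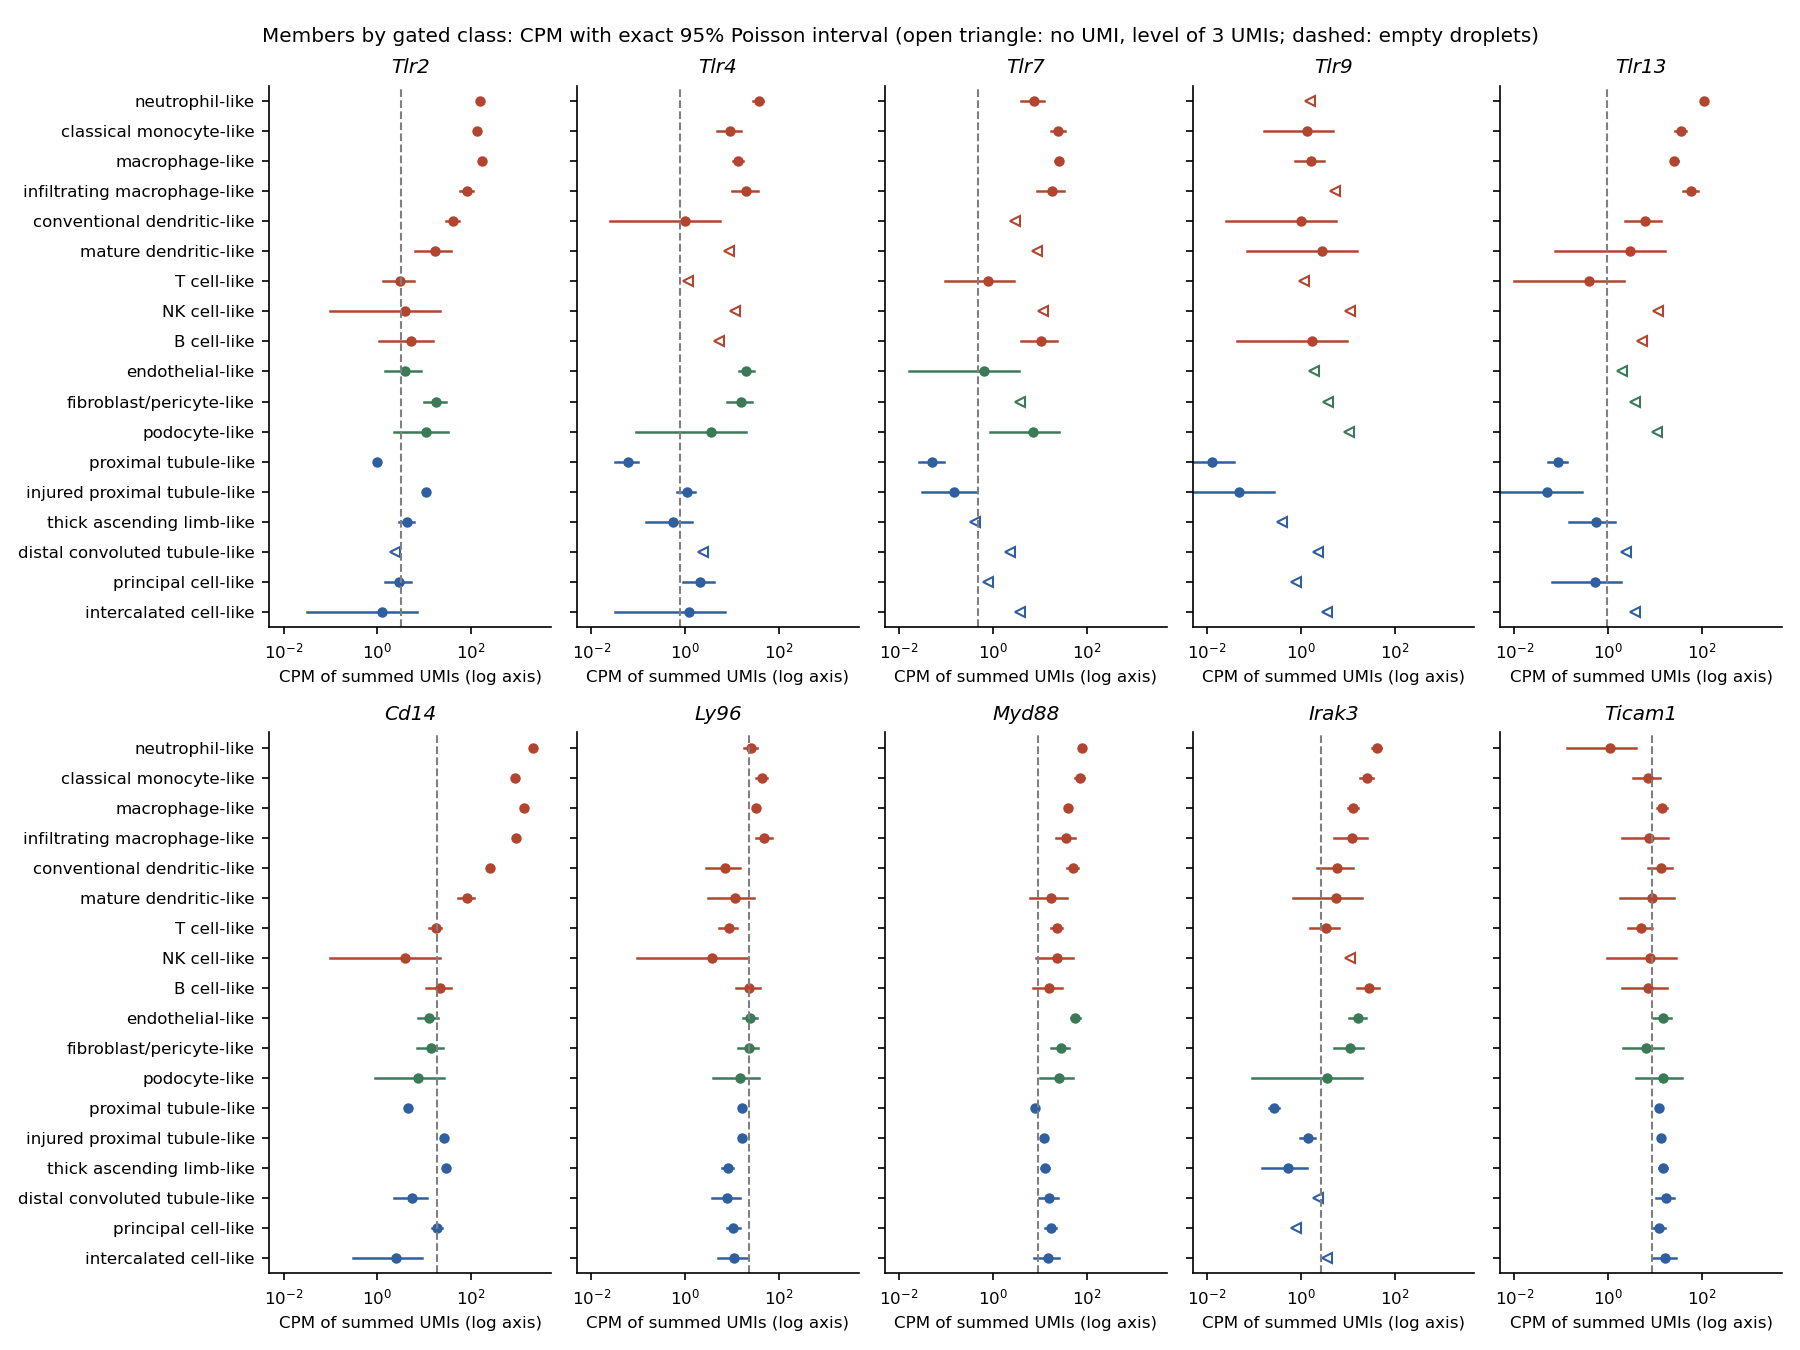
Level of each member in 18 gated classes (points, CPM of summed UMIs on a log axis) with exact 95% Poisson intervals, red for immune, green for endothelial, fibroblast/pericyte and podocyte, blue for tubule classes. Open triangles stand at the level of 3 UMIs where no UMI was found, and the dashed line is the level in empty droplets. Tlr2, Tlr13 and Cd14 fall from the myeloid classes to the tubule classes, and Tlr4 and Irak3 are also high in the endothelial-like class. Between most classes Ly96 and Ticam1 differ less than Tlr2, Tlr13 and Cd14 do.

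Cd14 and Ly96 (MD-2) hand LPS to Tlr4, Cd14 as the surface co-receptor and Ly96 as the subunit that binds the ligand. Cd14 was found at 2079 CPM (2015 to 2145) in neutrophil-like, 1358 CPM (1327 to 1389) in macrophage-like, 887 CPM (810.1 to 969) in infiltrating macrophage-like and 837 CPM (791 to 885) in classical monocyte-like cells. Conventional dendritic-like cells held 255 CPM (225 to 289) over all libraries, and 391, 215 and 40.7 CPM in libraries 1, 2 and 3, without overlap of the intervals. T cell-like cells held 17.3 CPM (12.6 to 23.2) and endothelial-like cells 12.4 CPM (7.48 to 19.4), against 18.4 CPM in empty droplets over all libraries. Thick ascending limb-like cells held 29.1 CPM (25.4 to 33.3), injured proximal tubule-like cells 26.6 CPM (24.4 to 29.0) and proximal tubule-like cells 4.46 CPM (4.19 to 4.74). Empty droplets held 28.4, 46.9, 22.5, 10.98 and 1.27 CPM of Cd14 in libraries 1 to 5. Against these, the proximal tubule-like interval was lower in libraries 1 to 4 and overlapped in library 5. The intervals of the thick ascending limb-like level overlapped those of empty droplets in libraries 1, 2, 4 and 5 and lay above in library 3.

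The order of Cd14 between the phagocytes turned with the library. Neutrophil-like cells held 1746 CPM and macrophage-like cells 2437 CPM in library 1. In library 2 the order was reversed, at 3447 and 1335 CPM. Libraries 3 and 4 held 1143 and 1170.5 CPM in neutrophil-like cells and 569.9 and 691 CPM in macrophage-like cells. The pooled neutrophil-like level rests on library 2, which gave 2587 of the 3920 UMIs, and the log2 ratio to the monocytes and macrophages, 0.79 with all libraries, was 0.03 (-0.06 to 0.11) without it. Without library 1, the 1 library in which neutrophil-like cells were lower, the ratio was 1.16 (1.10 to 1.21) and passed 2-fold. Classical monocyte-like cells held 1494, 735 and 924 CPM in libraries 2, 3 and 4, above macrophage-like cells in each, although their pooled level was lower, and infiltrating macrophage-like cells held 636 CPM (552 to 729) in library 3.

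Ly96 showed no myeloid restriction. Its levels ran from 48.9 CPM (32.2 to 71.1) in infiltrating macrophage-like and 43.0 CPM (33.1 to 55.1) in classical monocyte-like cells to 24.9 CPM (18.3 to 33.1) in neutrophil-like, 24.2 CPM (17.0 to 33.3) in endothelial-like, 16.5 CPM (16.0 to 17.0) in proximal tubule-like and 8.17 CPM (6.23 to 10.5) in thick ascending limb-like cells. The classical monocyte-like level rested on library 3 (49.8 CPM), with 1 and 3 UMIs in libraries 2 and 4. In proximal tubule-like cells it was 16.6, 14.8, 19.6, 17.8 and 13.4 CPM in libraries 1 to 5. Empty droplets held 8.96, 16.2, 24.7, 24.4 and 27.8 CPM, so the proximal tubule-like level was above them in library 1, overlapped them in library 2 and was below them in libraries 3, 4 and 5.

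The genes of the LPS receptor were also compared as shares of cells, after each cell was thinned to 1000 UMIs and shallower cells were left out. Cd14 had a UMI in 63.2% of 979 neutrophil-like, 55.4% of 912 macrophage-like and 42.0% of 350 classical monocyte-like cells, against 0.985% of 1117 T cell-like cells, which should lack it. The shares before thinning were 65.2%, 74.7%, 75.1% and 1.92%, at median depths of 1308, 3838, 3824 and 1751.5 UMIs. Tlr4 had a UMI in 34 of the 979 neutrophil-like cells (3.47%, 2.42 to 4.82), 12 of the 912 macrophage-like cells (1.32%, 0.682 to 2.29) and 4 of 278 endothelial-like cells (1.44%, 0.393 to 3.64), and in none of the T cell-like cells, which allows a share of cells with a Tlr4 UMI of up to 0.330% at this depth and sets no limit on cells expressing the gene. Before thinning the Tlr4 shares were 5.21%, 6.59% and 8.19%. Ly96 had a UMI in 30 of the neutrophil-like and 44 of the macrophage-like cells. A UMI of Tlr4, Ly96 and Cd14 together was found in 2 of the 979 neutrophil-like cells (0.204%, 0.0248 to 0.736) and in no macrophage-like or classical monocyte-like cell. Most phagocytes with a Cd14 UMI thus had no UMI of Tlr4 at 1000 UMIs per cell, a depth at which Tlr4 was seen in few cells of any class.

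**Figure D2:**
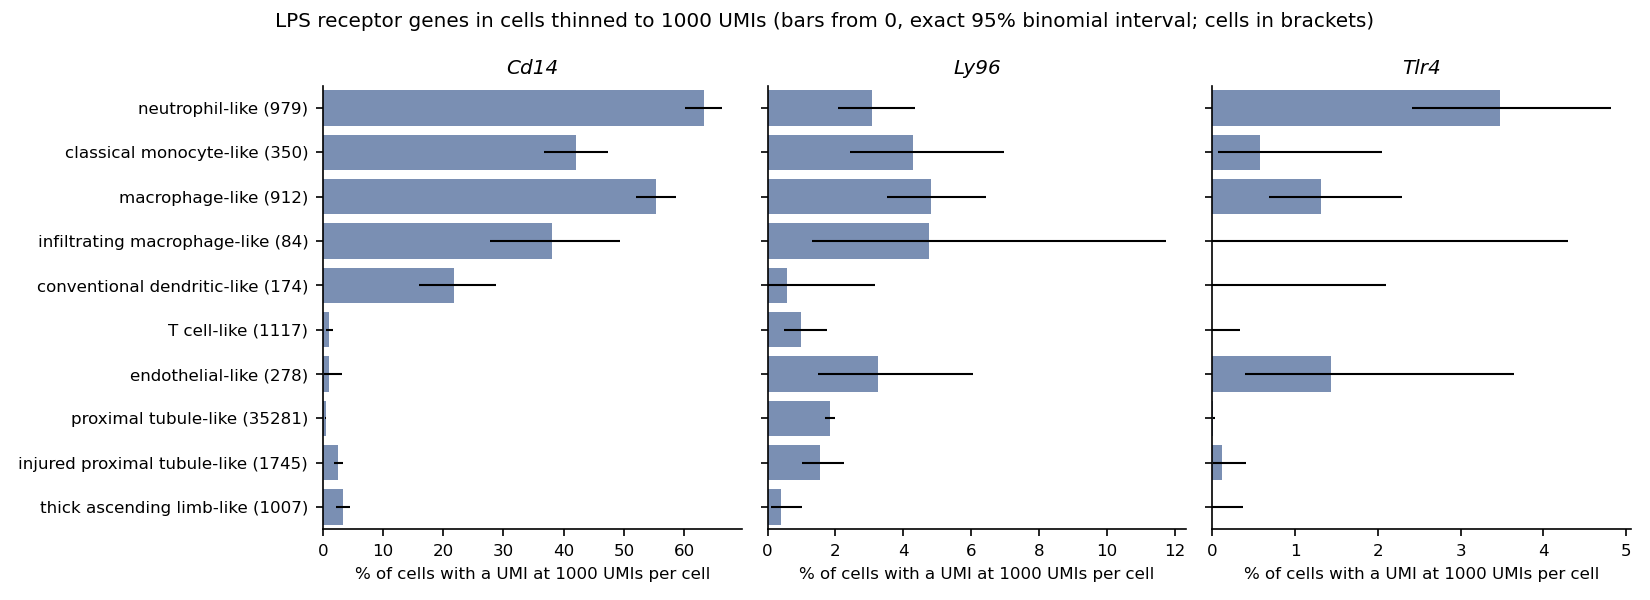
Share of cells with a UMI of Cd14, Ly96 or Tlr4 (x axis, percent of cells) in 10 classes after thinning each cell to 1000 UMIs, with exact 95% binomial intervals as lines and the number of cells in brackets. The axes differ between the genes. Cd14 reaches 63.2% of neutrophil-like cells, whereas Tlr4 stays at 3.47% there and 1.44% in endothelial-like cells.

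The adaptor Myd88, which carries the signal of nearly all Toll-like receptors and of the interleukin 1 receptor family, was broader than the receptors. It was 80.1 CPM (67.8 to 93.9) in neutrophil-like, 70.4 CPM (57.4 to 85.3) in classical monocyte-like, 57.5 CPM (46.1 to 70.9) in endothelial-like, 50.3 CPM (37.3 to 66.3) in conventional dendritic-like and 38.91 CPM (33.8 to 44.6) in macrophage-like cells. T cell-like cells held 23.1 CPM (17.6 to 29.7) and proximal tubule-like cells 7.70 CPM (7.35 to 8.06). The intervals of neighbours in the order of the myeloid and endothelial-like classes overlapped, and the order turned with the library. Endothelial-like cells held 82.1, 65.5 and 31.5 CPM in libraries 1, 2 and 3, where macrophage-like cells held 37.5, 29.2 and 56.0 CPM and conventional dendritic-like cells 41.4, 55.6 and 81.5 CPM. The endothelial-like interval lay above the macrophage-like interval in libraries 1 and 2, while in library 3 the endothelial-like level was the lowest of these 3, with overlapping intervals. Neutrophil-like cells held 116, 98.6, 65.0 and 63.3 CPM in libraries 1 to 4 and classical monocyte-like cells 95.5, 63.5 and 95.6 CPM in libraries 2, 3 and 4, with overlapping intervals in each. In proximal tubule-like cells Myd88 was 9.54, 8.42, 8.31, 6.45 and 5.89 CPM in libraries 1 to 5. Empty droplets held 3.71, 7.28, 9.15, 15.0 and 6.52 CPM in the same libraries, below the proximal tubule-like interval in library 1, above it in library 4 and overlapping it in the others.

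Ticam1 went the other way. It was lowest in neutrophil-like cells, with 2 UMIs in 1248 cells (1.06 CPM, 0.128 to 3.83). Macrophage-like cells held 13.9 CPM (10.9 to 17.5), endothelial-like cells 14.4 CPM (9.01 to 21.8), proximal tubule-like cells 12.04 CPM (11.6 to 12.5) and distal convoluted tubule-like cells 16.6 CPM (10.2 to 25.3). Empty droplets held from 2.16 CPM in library 1 to 13.6 CPM in library 4, and the neutrophil-like interval lay below theirs in library 3 and overlapped it in libraries 1, 2 and 4. Macrophage-like cells held 21.4, 15.3, 8.62 and 5.44 CPM in libraries 1 to 4, and the intervals of libraries 1 and 4 did not overlap. In library 4 the proximal tubule-like level (16.8 CPM) lay above the macrophage-like one without overlap.

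Irak3 (IRAK-M), which holds back signalling by blocking the release of the IRAK kinases from the receptor complex, was 41.9 CPM (33.2 to 52.2) in neutrophil-like, 28.3 CPM (16.2 to 45.9) in B cell-like, 25.96 CPM (18.4 to 35.6) in classical monocyte-like, 16.3 CPM (10.6 to 24.1) in endothelial-like and 12.97 CPM (10.1 to 16.4) in macrophage-like cells. Proximal tubule-like cells held 0.269 CPM (0.207 to 0.345), and empty droplets 2.77 CPM over all libraries. Neutrophil-like cells held 97.0, 63.9, 21.3 and 36.9 CPM in libraries 1 to 4. Macrophage-like cells stayed between 10.7 and 14.4 CPM in the same libraries. The neutrophil-like interval stood above the macrophage-like interval in libraries 1 and 2 and overlapped it in libraries 3 and 4. Classical monocyte-like cells held 26.6 CPM (18.1 to 37.8) in library 3, which overlapped the neutrophil-like interval there (12.8 to 33.3 CPM).

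**Figure D3:**
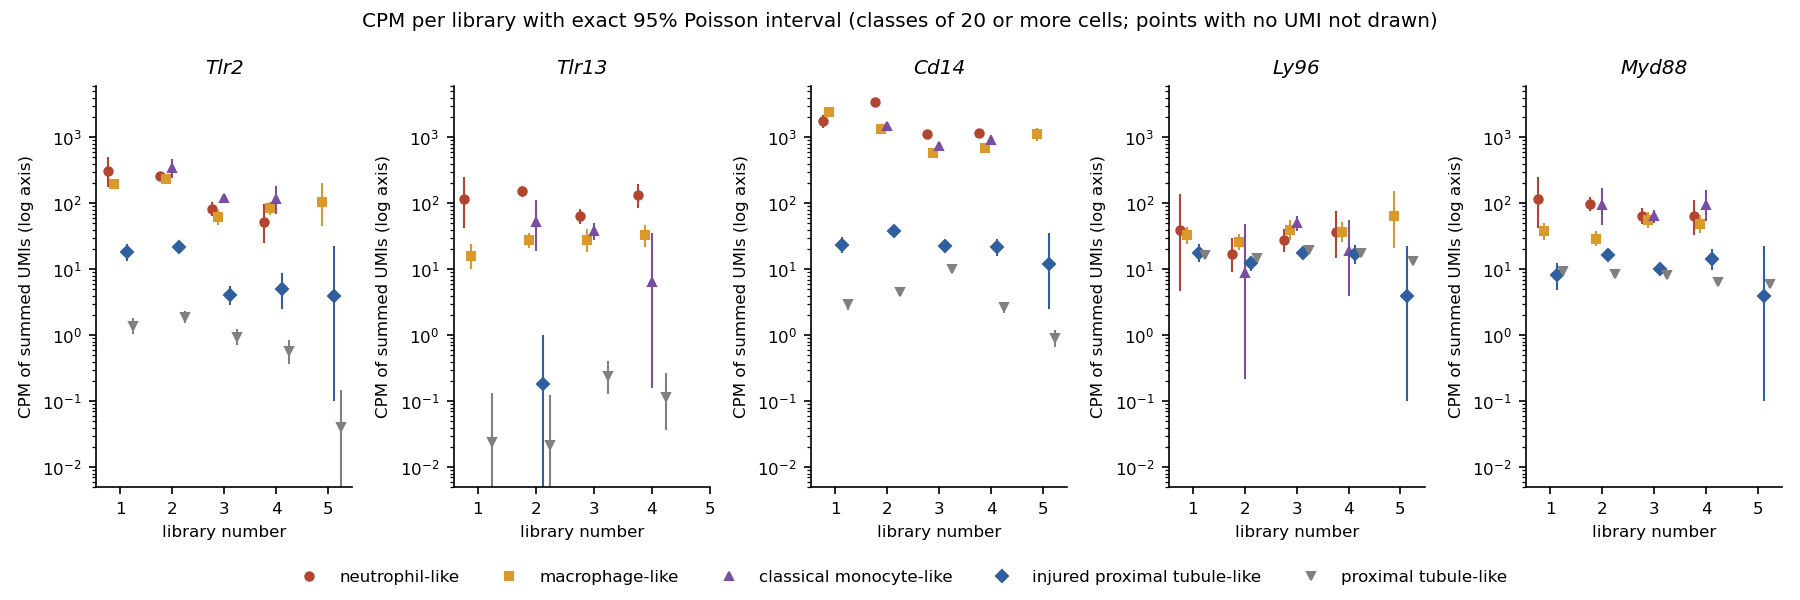
Levels of 5 members in each library (x axis, library number, with no order or condition) for 5 classes (symbols, CPM on a log axis) with exact 95% Poisson intervals. Classes under 20 cells and levels of 0 are not drawn. Tlr2 stands higher in libraries 1 and 2 than in libraries 3 and 4 in neutrophil-like, macrophage-like and injured proximal tubule-like cells, and Ly96 in proximal tubule-like cells stays between 13.4 and 19.6 CPM.

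Against the gated tubule cells as a whole, the gated immune cells held more of most members. A gene was counted as higher or lower where its levels differed at least 2-fold and at least 50 UMIs were found over both groups. Of the 9 members with 50 UMIs, 7 were higher in immune cells and 0 lower, where 21.4% of all 15471 genes tested were higher and 31.2% lower. The members' median log2 ratio was 5.87, against -0.26 over all genes tested. Tlr13 (log2 ratio 8.23, 7.67 to 8.85), Tlr7 (8.10, 7.35 to 8.96) and Cd14 (7.05, 6.98 to 7.12) stood furthest apart, followed by Tlr4 (5.99), Tlr2 (5.87), Irak3 (5.49) and Myd88 (2.40). With mixed cells kept, Tlr13 was at 7.21, Tlr7 at 6.34 and Cd14 at 6.44, so the order of Tlr7 and Cd14 turned. Ly96 (0.66, 0.51 to 0.82) and Ticam1 (-0.45, -0.72 to -0.20) differed less than 2-fold. Within the libraries, Cd14 ran from 5.49 in library 3 to 8.92 in library 5 and Tlr2 from 5.29 to 8.71, so the direction held in all 5. Ticam1 changed sign between the libraries, from -1.48 in library 4 to 0.67 in library 5, the latter from 3 UMIs of immune cells. In libraries 1 and 5, where Ticam1 was higher in immune cells, the intervals of both groups overlapped. Library 3 gave the smallest ratio of Tlr4, Tlr7, Tlr13, Cd14 and Irak3 among the libraries with a value, and without it Tlr13 was at 9.46, Tlr7 at 8.997 and Cd14 at 7.86. The 26 counted markers of neutrophils, monocytes and macrophages summed to 49.6 CPM in proximal tubule-like, 15135 CPM in macrophage-like and 84570 CPM in neutrophil-like cells, none of them was at 0 in the proximal tubule-like cells, and their part in the members' tubule levels was not tested.

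The other genes of the pathway were compared in the same way, in lists chosen for their roles. Among the other receptors, 7 of 9 tested were higher in immune cells (median log2 ratio 7.56), led by Ly86 (9.38) and Cd180 (9.27), a receptor pair of B cells and macrophages. Cd36, the scavenger receptor and Tlr2 partner, was at -0.37 and Tlr12 at -0.71. Of the trafficking genes, 4 of 7 were higher (median 1.37), with Ctss (9.10), a protease that trims endosomal receptors, and Unc93b1 (5.34), their chaperone, above the other 5. Adaptors and kinases were mostly shared, with 4 of 12 higher (median 0.39), among them Ticam2 (7.39), the bridging adaptor of Ticam1, and Ikbke (3.03). Of the transcription factors, 6 of 7 were higher (median 3.47), led by Rel (5.68) and Irf5 (4.70). Induced cytokines were higher in 8 of 9 (median 7.30), led by Il1b (9.18) and Ccl5 (7.82), while Cxcl1 was at 0.19. Of the inhibitors, 6 of 10 were higher and 1 lower (median 1.91), Tnfaip3 (A20) being at 5.25 and Sigirr at -2.15. Damage ligands were higher in 5 of 10 and lower in 2 (median 0.91), but S100a8, S100a9 and Umod of this list were also gate markers.

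**Figure D4:**
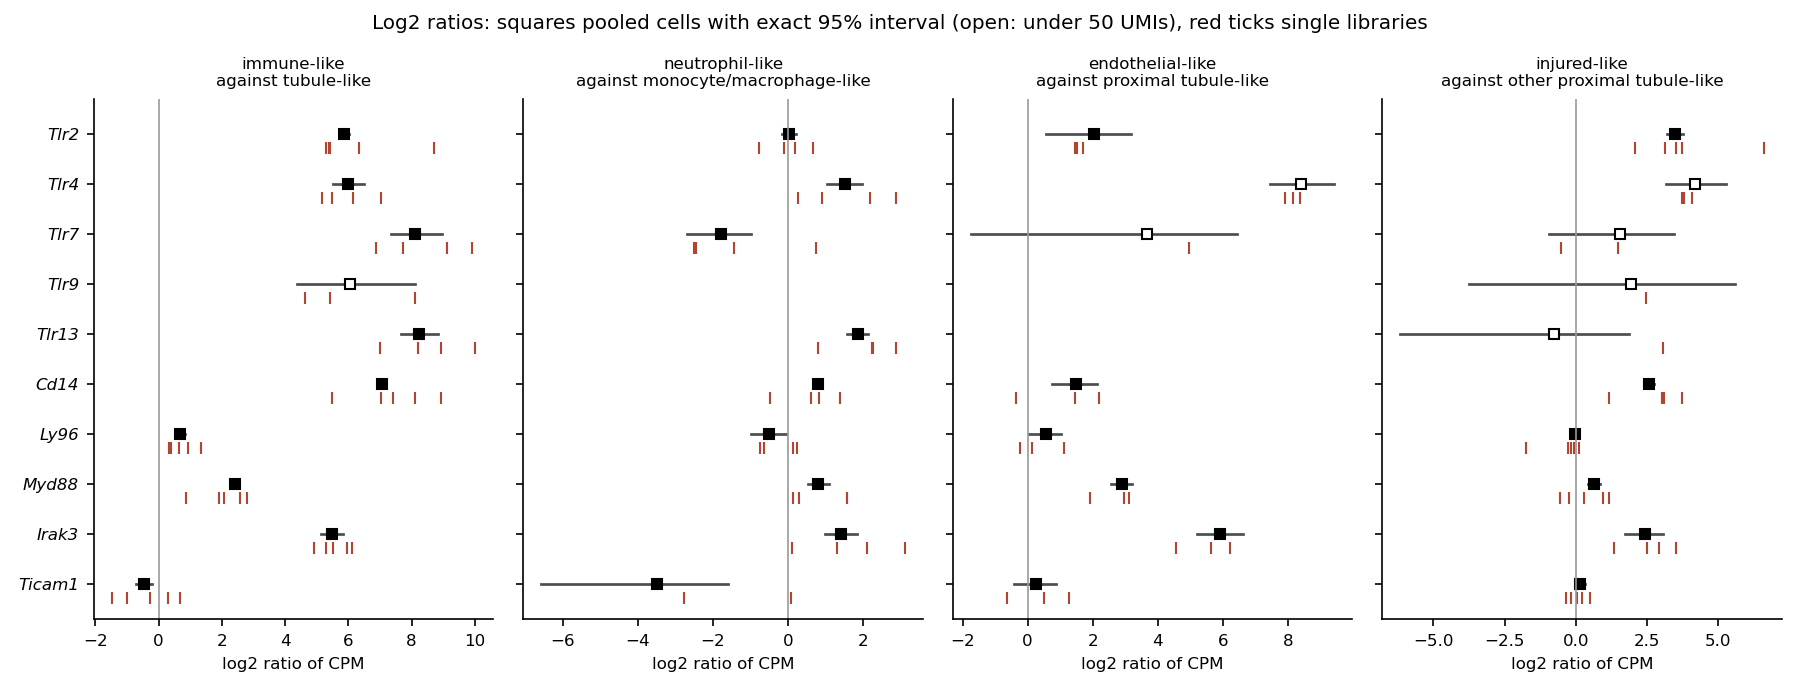
Log2 ratios of the members (x axis) in 4 comparisons, with squares for pooled cells, lines for exact 95% intervals and red ticks for single libraries. Open squares have under 50 UMIs over both groups. Most members lie right of 0 for immune-like against tubule-like cells, and Ticam1 and Tlr7 lie left of 0 for neutrophil-like against monocyte/macrophage-like cells.

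Between the phagocytes, neutrophil-like cells were set against the 1479 classical monocyte-, non-classical monocyte-, macrophage- and infiltrating macrophage-like cells together. Of 9 members tested, 3 were at least 2-fold higher in neutrophil-like cells, where 12.8% of 9128 genes were, and 2 were lower, where 20.5% were. The members' median log2 ratio was 0.79, against -0.20 over all genes. Tlr13 (1.85, 1.56 to 2.13), Tlr4 (1.505, 1.04 to 1.97) and Irak3 (1.41, 0.98 to 1.84) were higher, and Ticam1 (-3.49, -6.56 to -1.60) and Tlr7 (-1.78, -2.68 to -0.999) lower. Cd14 (0.79), Myd88 (0.81, 0.52 to 1.09), Ly96 (-0.52, -0.999 to -0.07) and Tlr2 (0.03, -0.16 to 0.22) stayed under the 2-fold limit with all libraries, but Cd14 passed it without library 1 (1.16) and Myd88 without library 3 (1.27).

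This contrast depended on the library. Tlr13 was higher in neutrophil-like cells in each of libraries 1 to 4, at log2 ratios of 2.88, 2.22, 0.80 and 2.25. Tlr4 stood at 2.88, 2.18, 0.89 and 0.27, and Irak3 at 3.10, 2.11, 0.11 and 1.29, with intervals that reached below 0 in libraries 3 and 4 for both. Without library 2, which held 535 of the 1248 neutrophil-like cells, 1 member was at least 2-fold higher in place of 3: Tlr13 at 1.44, while Tlr4 was at 0.85 and Irak3 at 0.76. When cells rich in proximal tubule markers were kept in their class, 1 member was at least 2-fold higher, with Tlr13 at 1.36, Tlr4 at 0.91 and Irak3 at 0.82, and Ticam1, at -0.73, was no longer 2-fold lower. Ticam1 was at -1.97 with mixed cells kept. Without library 3, Tlr13 was at 2.47 and Irak3 at 2.14. Tlr7 was lower in neutrophil-like cells in libraries 2, 3 and 4 (-2.46, -1.44 and -2.52) and at 0.73 in library 1 from 2 UMIs.

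Around these members, the trafficking genes of the endosomal receptors were lower in neutrophil-like cells in 6 of 7 (median -1.73), with Ctss at -4.03 and Ctsb at -2.42. Of the other receptors, 6 of 7 were lower (median -2.87), Ly86 at -5.29 and Cd180 at -3.83, and Tlr6, a Tlr2 partner, was higher at 2.26. Tirap, the adaptor that brings Myd88 to Tlr2 and Tlr4, was higher at 2.10 and Irak2 at 1.55. Ticam2 was lower at -1.53, the same direction as Ticam1. Induced cytokines, 2 of 8 higher and 4 lower (median -1.22), were split, with Il1b (1.92) and Cxcl2 (1.83) higher, Il10 (-4.15) lower and Il6 without a UMI in neutrophil-like cells, against 12.8 CPM in the monocyte/macrophage-like cells. Of the transcription factors, 1 of 7 was lower (Irf5, -1.43) and none higher, and among the inhibitors Nfkbia was higher at 1.51. Adaptors and kinases, 2 of 11 higher and 2 lower, had a median of 0.01, transcription factors of 0.08 and inhibitors, 1 of 8 higher, of 0.71. Damage ligands were higher in 3 and lower in 3 of 9 (median -0.23), the highest being the gate markers S100a9 (8.69) and S100a8 (6.52) and the lowest Fn1 (-4.18).

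Endothelial-like cells held more Tlr4, Irak3 and Myd88 than proximal tubule-like cells. Of 6 members with 50 UMIs over endothelial-like and proximal tubule-like cells, 4 were at least 2-fold higher in endothelial-like cells and 0 lower, where 29.6% of 14248 genes were higher and 26.7% lower. The members' median log2 ratio was 1.76, against 0.22 over all genes. Irak3 (5.92, 5.19 to 6.61), Myd88 (2.90, 2.58 to 3.21), Tlr2 (2.03, 0.57 to 3.18) and Cd14 (1.48, 0.74 to 2.13) were higher, and Ly96 (0.55) and Ticam1 (0.26) stayed under 2-fold. Tlr2 rested on 6 endothelial-like UMIs, at 3.92 CPM against 3.20 CPM in empty droplets. Cd14 was at 12.4 CPM in endothelial-like cells, against 18.4 CPM in empty droplets. Tlr4 stood at 8.40 (7.45 to 9.43) but was not among those tested, since the 31 UMIs in endothelial-like and 14 in proximal tubule-like cells sum to under 50. Within libraries 1, 2 and 3, Tlr4 was at 8.38, 7.92 and 8.17 and Myd88 at 3.11, 2.96 and 1.92. Irak3 was at 4.57, 6.22 and 5.64 in the same libraries, and Cd14 at 1.45, 2.19 and -0.37. Cd14 rested on library 2: without it the ratio was 0.96 and fell under 2-fold, so 3 members were higher, and without library 3 it was 2.36. Libraries 4 and 5 held 16 and 17 endothelial-like cells and gave no value.

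RNA of the myeloid markers was also measured in this class. Endothelial-like cells held 136 CPM of the 26 counted myeloid markers in sum, against 49.6 CPM in proximal tubule-like cells, with F13a1, Mmp9, Ms4a4c, Ms4a7 and Retnlg at 0. Among the 234 endothelial-like and 29061 proximal tubule-like cells with no UMI of any of these markers, Tlr4 was 23.4 against 0.0578 CPM (log2 ratio 8.67, 7.50 to 9.92), Irak3 19.9 against 0.289 CPM (6.11, 5.22 to 6.93) and Myd88 68.0 against 7.55 CPM (3.17, 2.77 to 3.55). Cd14 was 7.03 against 3.51 CPM (1.00, -0.45 to 2.14), and Tlr2 rested on 3 UMIs (1.94, -0.36 to 3.51). The ratios of Tlr4, Irak3 and Myd88 were as large in these cells as in all cells of the class. The part of leukocyte RNA in the endothelial-like levels was not tested.

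In the rest of the pathway, inhibitors were higher in endothelial-like cells in 8 of 10 (median 2.52), led by Socs1 (6.81) and Zc3h12a (3.51), and transcription factors in 5 of 7 (median 2.81), led by Irf7 (6.03) and Nfkb2 (2.85). Of the other receptors, 3 of 5 were higher and 2 lower (median 1.33). Lbp, the plasma protein that passes LPS to Cd14, stood at 6.46 and Tlr3, the receptor of double-stranded RNA, at 2.86. Induced cytokines were higher in 5 of 7 (median 1.27), with Il6 at 8.38 (24.2 against 0.0727 CPM). Damage ligands were higher in 6 of 10 and lower in 2 (median 1.36), led by Bgn (7.28) and Fn1 (4.47), and Tnc had no UMI in endothelial-like cells, where 3 UMIs would have made 1.961 CPM. Of the adaptors and kinases 2 of 11 were higher, Irak4 (2.35) and Tirap (1.37). Trafficking genes were higher in 3 and lower in 2 of 7 (median -0.02), Lgmn being at -2.56.

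The tubule classes differed among themselves in Tlr2 and Cd14. Injured proximal tubule-like cells, gated by Havcr1 or Vcam1 with other injury markers, were set against the other proximal tubule-like cells. The injured gate asked for 3 proximal tubule markers, against 6 for the other class. Injured cells held 35.6 CPM of Epcam, against 3.40 CPM in the other class and 359 CPM in thick ascending limb-like cells. Proximal tubule markers made 0.834% of their UMIs, against 1.43%. Whether cells of other tubule segments were in the injured class was not tested. Of 6 members tested, 3 were at least 2-fold higher in the injured class and 0 lower, where 11.5% of 14281 genes were higher and 3.01% lower. The median log2 ratio was 1.53 over the members and 0.14 over all genes. The classes differed in depth, with medians of 9338.5 and 5617 UMIs per cell, and CPM is a share of these UMIs.

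Tlr2 was 18.2, 21.9, 4.03, 4.96 and 3.99 CPM in injured proximal tubule-like cells of libraries 1 to 5, the last from 1 UMI. The other proximal tubule-like cells held 1.40, 1.91, 0.951, 0.572 and 0.0413 CPM in the same libraries. In libraries 1 to 4 the intervals of both classes did not overlap. Over all cells the log2 ratio was 3.47 (3.19 to 3.75). Libraries 1 to 4 taken singly gave 3.71, 3.52, 2.08 and 3.12. It was 4.14 without library 3, which held 951 of the 1758 injured proximal tubule-like cells.

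Cd14 was 23.8, 38.1, 22.5, 21.6 and 11.98 CPM in the injured class of libraries 1 to 5 and 2.94, 4.48, 10.2, 2.67 and 0.909 CPM in the other proximal tubule-like cells. The injured class was higher in every library, without overlap of the intervals. Its Cd14 intervals overlapped those of empty droplets in libraries 1, 2, 3 and 5 and lay above in library 4. The part of free RNA in the Cd14 level of the injured class was not tested. The log2 ratio was 2.58 (2.42 to 2.73) over all cells and 3.01, 3.09, 1.14, 3.02 and 3.72 within the libraries. Without library 3 it was 3.49. Thick ascending limb-like cells held 19.0, 57.4, 31.1, 8.76 and 1.68 CPM of Cd14, so library 2 was the highest and library 5 the lowest there as well.

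Irak3 was higher in the injured class at 2.42 (1.73 to 3.07) from 29 UMIs, 1.44 against 0.269 CPM, and at 3.00 without library 3. Empty droplets held 2.77 CPM of Irak3 over all libraries. The injured interval overlapped theirs in libraries 1, 2, 3 and 5 and lay below it in library 4. Tlr4 was at 1.09 CPM (0.683 to 1.65) in the injured class and 0.783 CPM (0.502 to 1.16) in empty droplets. Tlr4 stood at 4.19 (3.16 to 5.27), from 22 UMIs in 1758 injured and 14 in 37001 other proximal tubule-like cells, too few to be among those tested, and was at 2.96 with mixed cells kept. Myd88 (0.64, 0.44 to 0.83), Ticam1 (0.14, -0.05 to 0.32) and Ly96 (-0.05, -0.22 to 0.12) stayed under the 2-fold limit. The intervals of Ticam1 and Ly96 both included 0.

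Myeloid marker RNA was measured in the same cells. The 26 myeloid markers summed to 82.9 CPM in the injured class and 49.6 CPM in the other proximal tubule-like cells, where every marker was detected in both, and to 386 CPM in empty droplets. In the injured class they ran from 41.0 CPM in library 4 to 103 CPM in library 1, and in empty droplets from 59.6 CPM in library 5 to 728 CPM in library 2. For every 100 UMIs of these markers there were 32.1 of Cd14 and 12.8 of Tlr2 in the injured class, against 8.99 and 1.93 in the other proximal tubule-like cells, 4.77 and 0.829 in empty droplets, 8.97 and 1.10 in macrophage-like and 2.46 and 0.185 in neutrophil-like cells. In cells with no UMI of any myeloid marker, 1018 injured and 29061 other, Tlr2 was 11.8 against 0.918 CPM (3.69, 3.33 to 4.04) and Cd14 23.4 against 3.51 CPM (2.74, 2.52 to 2.96). Both differences were as large there as in all cells of the classes. Irak3 was at 1.63 (0.42 to 2.67) from 9 UMIs and Tlr4 at 3.37 (1.62 to 4.97) from 6 and 10 UMIs. These point values were smaller than in all cells, but their intervals included the ratios of all cells.

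**Figure D5:**
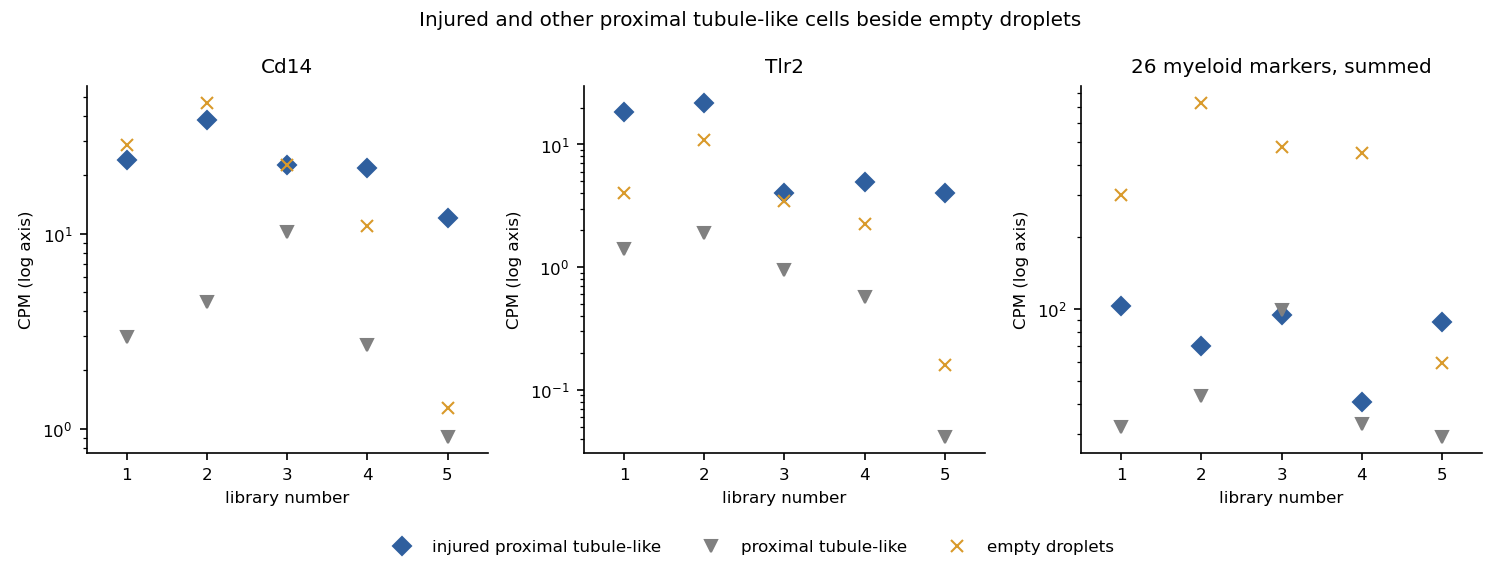
Levels (CPM, log axis) of Cd14, Tlr2 and the sum of 26 myeloid markers by library number in injured proximal tubule-like cells (diamonds), other proximal tubule-like cells (triangles) and empty droplets (crosses). For Cd14 and Tlr2 the diamonds lie above the triangles in all 5 libraries, while the marker sum is highest in empty droplets except in library 5.

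The genes that follow the receptors were led by the cytokines in the injured class. Of 6 induced cytokines tested, 5 were higher (median log2 ratio 2.82), with Cxcl2 at 3.85 (133 against 9.16 CPM), Ccl5 at 3.42 and Cxcl1 at 2.52 (497 against 86.9 CPM), and Il1b was at -0.65. Transcription factors were higher in 4 of 7 (median 1.35), Nfkb2 at 2.21 and Nfkb1 at 1.80. Inhibitors were higher in 3 of 10 (median 0.60), Socs1 at 3.23 and Tnfaip3 at 2.21, while Dusp1 was at -0.59. Damage ligands were higher in 4 of 10 (median 0.44), led by the matrix proteins Tnc (5.59) and Bgn (5.03). Lbp was the 1 other receptor of 5 that was higher, at 5.59. None of the 7 trafficking genes (median 0.33) and none of the 11 adaptors and kinases (median 0.20) reached 2-fold in either direction.

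The genes whose levels over the 18 classes of at least 50 cells were most like each member were sought among 12259 genes, by Pearson's r of log2(CPM + 1). For Tlr13 they were Fcgr4 (r = 0.973), Cd300ld and Clec5a, and for Cd14 they were Igsf6 (0.959), Lrrc25 and Tlr13 (0.955). Tlr2 was followed most closely by Lst1 (0.932), Cd14 (0.929) and Cxcl2 (0.926), and Irak3 by Itprip (0.952) and Ifi27l2a. For Tlr7 the nearest were Apoc2 (0.903), C5ar1 and Msr1, for Tlr4 Tnfrsf1a (0.881), Ets2 and Hacd4, and for Myd88 Ifitm3 (0.877), Ptpn1 and Acap2. Tlr9 came with Rnase6 (0.877), H2-Aa and Ciita, Ticam1 with Tbccd1 (0.859) and Naa25, and Ly96 with Arl8a (0.849), Vcan and Blvrb. The classes share libraries and free RNA, and for Tlr9 the values rest on single UMIs, so these r are a description only.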

How the data were processed

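Kidney cells of 5 samples, 1 per condition (UIR day 1, 3, 14 and 28, and Sham), were profiled with a droplet 3' kit, and the authors deposited 1 matrix of raw UMI counts, made with Cell Ranger 6.0 against mm10 per the labels. The study's methods describe several matrices for each condition, merged into 1, whereas 5 libraries were found here by barcode suffix, so it is unclear whether a library holds 1 mouse or several. Values of each library are therefore not replicates of a condition, and no p-value was computed.

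Cells were called in each library from the deposited counts. Barcodes above 10% of the 99th percentile of the top 3000 were kept, and those of at least 500 UMIs (at most 20000 candidates, a limit reached in library 3) were compared with the profile of barcode ranks 45000 to 90000 by 10000 simulated multinomial draws at an adjusted p of at most 0.01. Cells had at least 200 genes and at most 25% counts of 13 mitochondrial genes, and 518 and 12674 called barcodes missed these limits, some of them both. Empty droplets are the barcodes of those ranks. No doublet caller was run, and cells that passed the gates of several lineages, or held at least 0.5% of their UMIs on proximal tubule markers beside another lineage, were left out as mixed. Markers of non-tubule classes with a UMI in over 10% of cells (Ace, G0s2, Lyz2, Plac8 and Spp1) were not counted. The members, lists and gates were chosen with earlier results of these data known, and the gate rule after marker detection was seen. Genes named from each list are the 2 with the highest and the 2 with the lowest log2 ratio, or some of them. Levels are sums of counts, with no correction for free RNA. Genes most like a member needed 500 UMIs over all cells, and of the 3 sought for each member, 1 for Irak3 and 1 for Ticam1 are not reported here. Calling and ratios were tested on simulated data. Python 3.11.15, numpy 2.4.6, scipy 1.17.1, pandas 2.3.3, numba 0.67.0 and matplotlib 3.10.9 were used.

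Alternatives were no comparison with the ambient profile, at most 10% mitochondrial counts, at least 500 genes, 1 more marker in the gates, mixed cells kept, thinning to 1000 UMIs, the mean of CPM per cell and leaving out each library, with 3 more added after the data were seen.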

Additional observations from a re-analysis of the deposited data

Results flagged for a closer look

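Called droplets above the mitochondrial limit enter no comparison of the report, and the 12207 of them with at least 200 genes were examined. In these droplets 8 members were found above 0.0552 CPM, the level of 3 UMIs. Tlr2 was at 1.36 CPM, Tlr4 at 0.221 CPM, Tlr13 at 0.276 CPM and Irak3 at 0.221 CPM. Cd14 was at 7.65 CPM, Ly96 at 10.1 CPM, Myd88 at 5.28 CPM and Ticam1 at 6.90 CPM. Each of these levels was below that of empty droplets over all libraries.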

How the results depend on the processing

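Of the recomputed counts of members at least 2-fold higher, 56 stayed within 1.5 times the reported count and 2 did not. In neutrophil-like against monocyte/macrophage-like cells the count was 3, ran from 1 to 4 without each library in turn (1 without library 2), and was 1 with cells rich in tubule markers kept in their class, an alternative added after the data were seen. The cause was not tested. Without each library in turn the count was 7 throughout for immune against tubule cells, 3 to 4 for endothelial-like against proximal tubule-like cells (3 without library 2, where Cd14 fell under 2-fold) and 3 throughout for injured against other proximal tubule-like cells. Of the recomputed log2 ratios of single members, 438 moved by less than the counting interval, 86 moved by more, and 1 was counted as reversed. This was Myd88 in injured against other proximal tubule-like cells, 0.64 as reported and -0.00344 (-0.86 to 0.74) with cells thinned to 1000 UMIs. Tlr13 in the same comparison rested on 1 UMI of the injured class. Its ratio also changed sign in cells with no myeloid marker UMI, but was not counted as reversed. With mixed cells kept, Tlr2 and Cd14 in that comparison were at 2.84 and 1.76, Tlr7 in immune against tubule cells at 6.34 and Tlr4 in endothelial-like against proximal tubule-like cells at 7.14. Leaving out cells with a barcode found in more than 1 library, and, for the tubule and endothelial comparisons, cells with a myeloid marker UMI, were also added after the data were seen. No paired analysis was possible because each condition has 1 sample and no label ties a library to a condition. Small numbers of UMIs limited Tlr9 in all classes, and Tlr4 (49 UMIs) and Irak3 (96 UMIs) in tubule cells.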
